A study of Saccharomyces cerevisiae with 9 samples.

Results

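The response of wild-type (WT) budding yeast to salt shock was described from 7 of the 9 arrays of the series, chosen by their labels as the WT cultures (replicates 1, 2 and 8 to 12). The WT strain was BY4741, a haploid laboratory strain of Saccharomyces cerevisiae that needs histidine, leucine, methionine and uracil in its medium. Cells grew in rich YPD medium at 30°C into log phase, and each treated culture then spent 30 min in 0.7 M NaCl. On each array the RNA of these treated cells was hybridized together with RNA of the same strain before salt was added, so every value is a log2 ratio of treated over unstressed cells, and 1 unit is a doubling. The other 2 arrays were made in the same way from ckb12 cells, which lack the genes CKB1 and CKB2 for the regulatory subunits of casein kinase 2, and they are set beside the WT values in a few places only.

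When salt is added, water leaves a yeast cell and sodium enters it. The Hog1 kinase pathway answers the loss of water, chiefly through the making and keeping of glycerol, while sodium is pumped out and calcium signaling through calcineurin helps to raise those pumps. At the same time stressed yeast turns on a broad set of protective genes and turns down ribosome production, a program shared by many stresses and known as the environmental stress response.

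The table held 6942 features, of which 6699 carried ORF-style names. A feature was tested where all 7 WT arrays had a value, which left 6129 features, 5920 of them ORF-style. Each array had between 6205 and 6802 values, the pairwise correlation of the WT arrays over features lay between 0.879 and 0.962, and the median feature of each array lay between -0.00118 and 0.00016, so each value is relative to the median feature and not to an amount of RNA per cell. Replicates 1 and 2 have no set letter in the labels, while replicates 8 to 12 have the letters A to E. These 2 kinds of array did not hold the same features, since 308 ORF-style features were blank only on replicate 2 and 106 were blank on both replicates 1 and 2 and filled on the 5 others. The labels of replicate 12 are not of 1 kind, since its source field speaks of a mutant while the other fields give WT, and it was counted as WT here. Ratios give no level, so they cannot show the mating type. The a-cell genes STE2, MFA1, MFA2 and BAR1 fell by means of 0.95, 1.39, 2.39 and 1.36, and STE3, the receptor of the other mating type, had a mean of 0.50.

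Most of the measured features differed between salt-treated and unstressed cells. The mean of the 7 WT arrays differed from 0 for 4725 of 6129 features (77.1%) by limma's moderated test with a Benjamini-Hochberg adjusted p below 0.05, which is the meaning of a call, a rise or a fall in all that follows. Rises made up 36.5% of the features tested (2235) and falls 40.6% (2490). With a mean change of at least 1 required as well, there were 770 rises (12.6%) and 991 falls (16.2%). The excess of falls among all calls depended on requiring a value on all 7 arrays. With values on at least 4 WT arrays allowed, there were 2535 rises and 2506 falls. Of at least 1 in size falls then still outnumbered rises, with 954 rises and 1007 falls. With so many features called, a count of calls within a gene class has to be read against these shares. A dye effect repeated on all arrays would also appear as a change, since the labels give the treated RNA the same dye throughout. The tails had different shapes. Means reached 3 or more for 129 features and 5 or more for 32, with a highest mean of 8.45, whereas 52 features had a mean of -3 or lower, 4 of -4 or lower and none of -5 or lower, with a lowest mean of -4.53. The values of single features scattered little between arrays, with a median SD of 0.28 among features with means of 1 or more, 0.25 among those with means of -1 or lower and 0.22 between.

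To see where in cell biology these changes lay, 2250 features were placed in 79 functional classes, and 2220 of them were tested. Class medians are the medians of the members' mean log2 ratios and are descriptive, with no test of the class. They ran from 4.74 for small stress proteins to -2.65 for factors that assemble the large ribosomal subunit, against -0.04 for all features. In 8 classes the median was 1 or more, in 14 it was -1 or lower, and in 36 it lay between -0.5 and 0.5. In 62 of 79 classes the class median had 1 sign on all 7 WT arrays. All values given for a gene from here on are means of the log2 ratio ± SD over the 7 WT arrays (n = 7), unless they are named as the lowest, median and highest array.

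**Figure D1:**
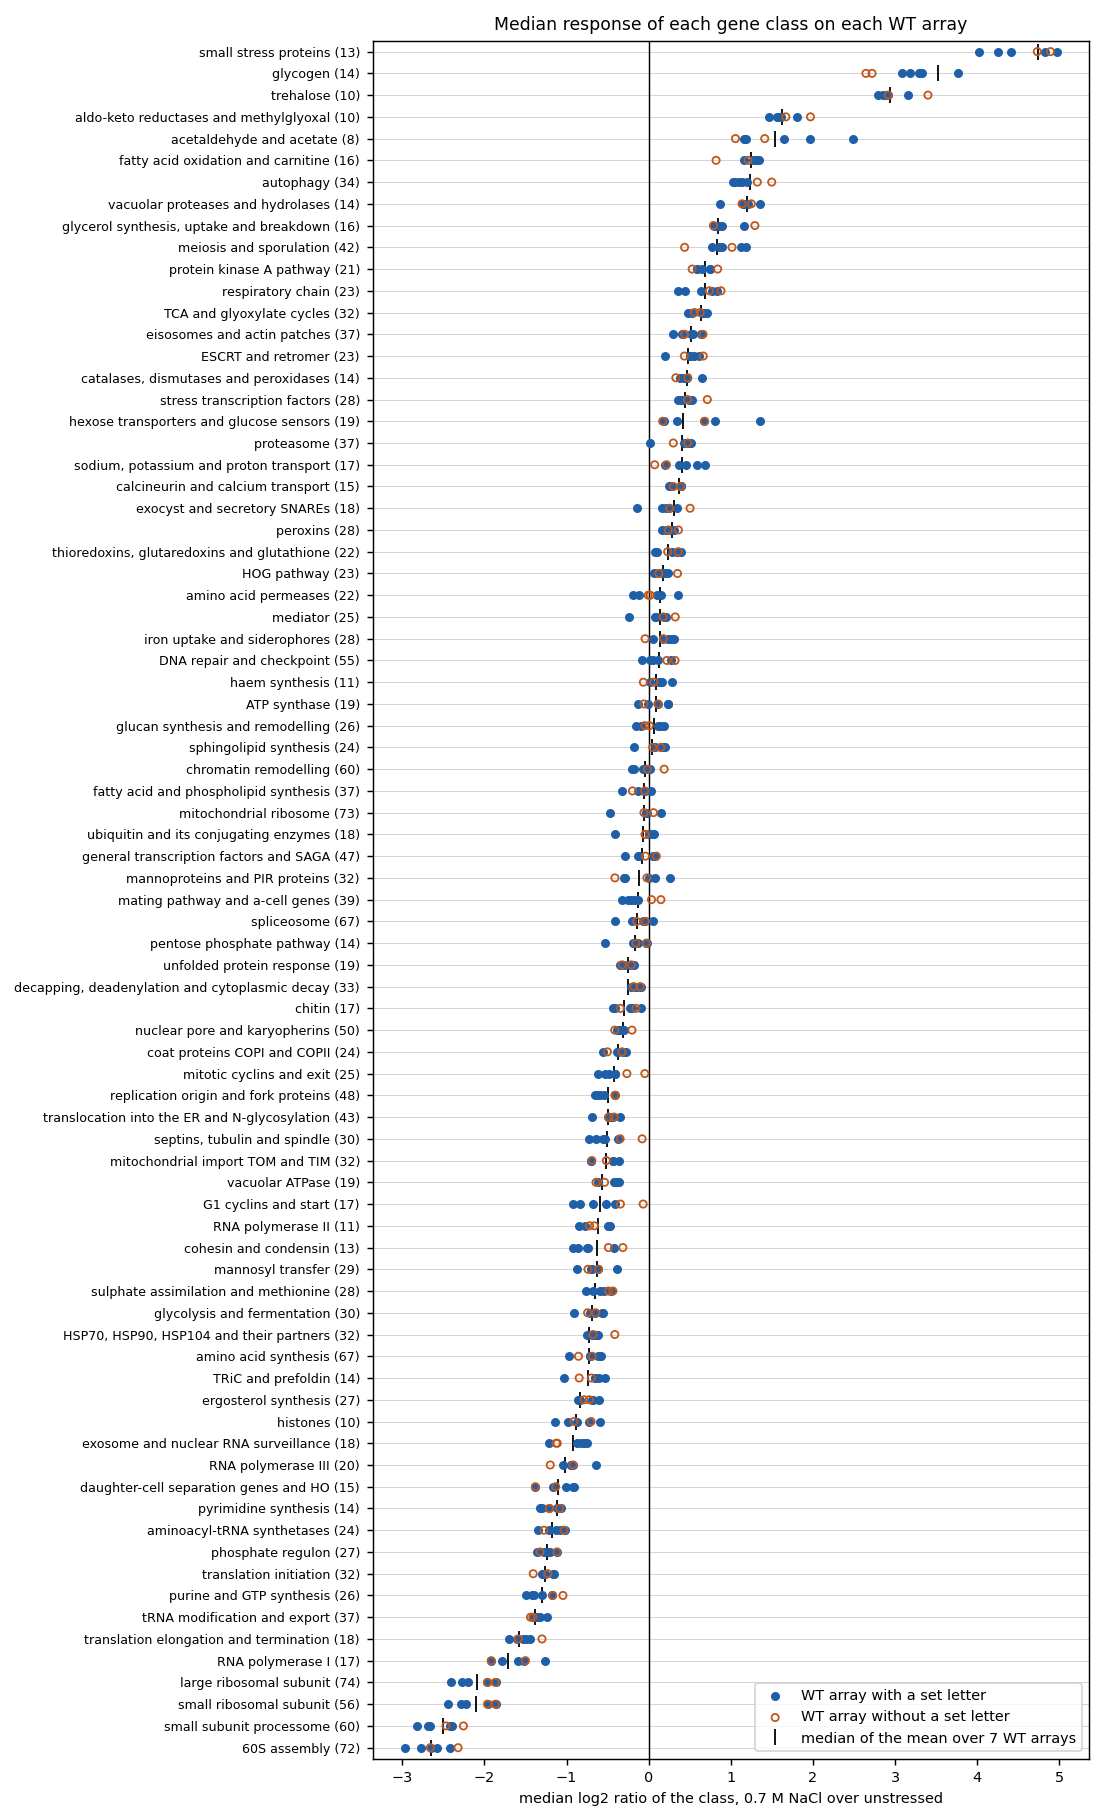
Median log2 ratio (0.7 M NaCl over unstressed) of the tested members of each of 79 gene classes on each WT array, with the number of members tested in brackets. Filled points are the 5 arrays with a set letter, open points the 2 arrays without, and the short bar is the median of the members' means, from 4.74 for small stress proteins at the top to -2.65 for 60S assembly at the bottom.

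The lowest class medians were those of ribosome assembly. All 60 tested members of the small subunit processome, the particle that processes the small-subunit rRNA in the nucleolus, fell, 57 of them by at least 1, with a class median of -2.50. All 72 tested factors of 60S assembly fell as well, 69 by at least 1. NSR1, a nucleolar protein that binds pre-rRNA, had the lowest mean of all features tested. Its values were -5.14, -4.54 and -3.80 on the lowest, median and highest WT array, a mean of -4.53 ± 0.46 (limma adjusted p = 1.3e-09). RRP12, which takes part in the export of both subunits, was at -4.25, -3.84 and -3.39 (mean -3.80 ± 0.29), and UTP23, another processome component, had a mean of -3.85 ± 0.43. No array came near 0 for any of these 3 genes. Medians by array lay between -2.96 and -2.32 for 60S assembly and between -2.82 and -2.26 for the processome.

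The ribosomal protein genes fell as well. All 56 tested genes of the small subunit fell by at least 1, with means between -2.88 and -1.33 and a median of -2.10, and all 74 tested genes of the large subunit fell, 72 by at least 1, with a median of -2.09. RPS26B was lowest in the small subunit (-2.88 ± 0.30) and RPL31B in the large subunit (-2.66 ± 0.33). Most ribosomal proteins of yeast are encoded by a pair of nearly identical genes, and how far the array features told such copies apart was not tested.

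The polymerases that serve ribosomes fell with them. RNA polymerase I, which transcribes the rRNA genes, had 15 of 17 members called, all falls, with a median of -1.71. Its subunit RPA43 was at -4.10, -3.50 and -3.04 on the lowest, median and highest array (mean -3.61 ± 0.39), and the catalytic subunits RPA190 and RPA135 had means of -2.97 ± 0.17 and -2.88 ± 0.29. RNA polymerase III, which makes tRNA and 5S rRNA, had 12 falls, 10 of them of at least 1, and 3 rises among 20 members (median -1.02). MAF1, the repressor of this polymerase, was among the rises at 0.51 ± 0.11, while the subunit RPC31 fell by 2.46 ± 0.28. RNA polymerase II, which makes mRNA, had 8 falls among 11 members and a median of -0.61. RPB8 (-1.73 ± 0.17) and RPB5 (-1.50 ± 0.29), the lowest of these, are subunits that all the polymerases share.

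Translation factors followed, with a single riser in each of 2 classes. Of 32 initiation factors 31 fell (median -1.26). GCD10, a subunit of a tRNA methyltransferase first found as an initiation factor, was lowest at -2.56 ± 0.13, followed by TIF4631, a scaffold of the cap-binding complex, at -2.13 ± 0.10. The exception was DBP1, an RNA helicase whose paralog DED1 drives scanning, which rose in all 7 arrays (1.65, 1.83 and 2.39 on the lowest, median and highest). Of 18 elongation and termination factors 17 fell (median -1.58), led by LIA1, the hydroxylase that completes hypusine on eIF5A, at -3.47 ± 0.09. The exception was HEF3, a second copy of the elongation factor YEF3, at 1.27 ± 0.21, while YEF3 itself fell by 2.54 ± 0.26. Among 24 aminoacyl-tRNA synthetases 22 fell and 1 rose, again a second copy, GRS2 (0.84 ± 0.14), beside GRS1 (-1.50 ± 0.09).

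Several classes of RNA processing fell. In tRNA modification and export 36 of 37 members fell and none rose (median -1.39), with the methyltransferase genes TRM11 (-3.45 ± 0.40) and TRM1 (-2.76 ± 0.08) lowest. In the nuclear exosome and its cofactors 17 of 18 fell (median -0.92), with the helicase MTR4 at -2.94 ± 0.17. AIR1 and AIR2 encode alternative RNA-binding subunits of the same adaptor complex, and AIR1 fell (-2.14 ± 0.37) while AIR2 had a mean of 0.16 ± 0.11, a call that was lost without any one of replicates 1, 2, 8, 10 or 11. Cytoplasmic mRNA decay moved both ways, with 8 rises (24.2%) and 16 falls (48.5%) among 33 members and a median of -0.25. EDC2, an activator of decapping, rose by 2.10 ± 0.22, while DCP1, a subunit of the decapping enzyme, fell by 1.23 ± 0.31.

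Most genes that make precursors of nucleic acids and proteins fell. Purine and GTP synthesis had 21 falls and 2 rises among 26 members (median -1.30). AAH1, adenine deaminase, was second in depth to NSR1 among the genes named here, at -4.66, -4.38 and -3.66 on the lowest, median and highest array (mean -4.36 ± 0.34). HPT1, which salvages guanine and hypoxanthine, fell by 3.02 ± 0.52, and IMD4, an IMP dehydrogenase, by 2.74 ± 0.22. Pyrimidine synthesis had 11 falls and 3 rises among 14 (median -1.12). URA7, the major CTP synthase, fell by 3.19 ± 0.16, whereas URA8, the second CTP synthase, was at 0.55 ± 0.15, and URA10, the minor orotate phosphoribosyltransferase, rose by 1.74 ± 0.22.

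Amino acid synthesis had 51 falls and 9 rises among 67 members (median -0.72), with LEU9, LYS4 and HIS1 at -2.39 ± 0.33, -2.33 ± 0.16 and -2.24 ± 0.26. ARO9, an aminotransferase that degrades aromatic amino acids, went the other way at 3.92 ± 0.33, as did ARG3, ornithine carbamoyltransferase, at 1.86 ± 0.37. Sulfate assimilation and methionine synthesis had 19 falls and 4 rises among 28 (median -0.66). SAM1, an S-adenosylmethionine synthetase, fell by 2.78 ± 0.30 and the methionine synthase MET6 by 2.20 ± 0.33, while MET13 and MET28 rose by 1.29 ± 0.32 and 1.23 ± 0.29. Amino acid permeases moved both ways, with 9 rises (40.9%) and 8 falls (36.4%) among 22, near the 36.5% and 40.6% of all features. PUT4, the proline permease, reached 5.48, 6.21 and 7.17 on the lowest, median and highest array (mean 6.27 ± 0.70), far above AGP2 (2.51 ± 0.55), the next in the class. MMP1, which takes up S-methylmethionine, fell by 2.20 ± 0.37 and the amino acid permease TAT1 by 1.31 ± 0.22.

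The phosphate regulon, the genes that bring in and release phosphate, fell in 18 of 27 members, 17 of them by at least 1, and rose in 6 (median -1.24). PHO84, the high-affinity phosphate transporter, was at -4.97, -4.30 and -3.25 on the lowest, median and highest array (mean -4.26 ± 0.63). PHM6 (-3.95 ± 0.26) and the acid phosphatase PHO12 (-3.86 ± 0.25) lay close to it. Opposite to them stood PHM7, a membrane protein of uncertain role, whose mean of 7.62 ± 0.72 was among the highest measured, and PHM8, a nucleotide phosphatase, at 2.98 ± 0.42. Iron uptake had 13 rises and 6 falls among 28 members (median 0.13). FRE1, a ferric reductase, fell by 2.91 ± 0.43, the iron and copper transporter FET4 by 1.98 ± 0.59 and the iron permease FTR1 by 1.07 ± 0.38, while HMX1, heme oxygenase, rose by 2.19 ± 0.35.

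Among membrane lipids, ergosterol synthesis fell in 22 of 27 members (median -0.83), with ERG11 (-1.98 ± 0.30), ERG3 (-1.97 ± 0.25) and ERG25 (-1.78 ± 0.21) lowest. The single rise was ERG9, squalene synthase, at 0.43 ± 0.14. Fatty acid and phospholipid genes moved both ways, with 14 rises (37.8%) and 18 falls (48.6%) among 37, against 36.5% and 40.6% of all features. INO1, which makes inositol, rose by 2.69 ± 0.35 and the acyl-CoA synthetase FAA1 by 1.69 ± 0.22, while the elongase ELO3 fell by 2.39 ± 0.26 and the desaturase OLE1 by 2.25 ± 0.63. In sphingolipid synthesis, with 11 rises and 7 falls among 24, the largest rises were the ceramidases YPC1 (3.18 ± 0.37) and YDC1 (1.39 ± 0.17), which break ceramide down, and the largest falls the sphinganine hydroxylase SUR2 (-1.79 ± 0.35) and the inositol phosphorylceramide synthase AUR1 (-1.60 ± 0.29).

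Genes of glycerol, the Hog1 pathway, ion transport and calcineurin come next. Salt was the only stress applied, so a response particular to salt cannot be told apart from a general one. Of 16 genes of glycerol synthesis, uptake and breakdown 12 rose, 7 of them by at least 1, and 1 fell (median 0.84). STL1, the symporter that brings glycerol into the cell, was at 7.12, 8.56 and 8.96 on the lowest, median and highest WT array (mean 8.26 ± 0.72, limma adjusted p = 4.3e-10). Replicates 1 and 2 were the lowest for STL1, with a mean of 7.28, against 8.65 for the arrays with a set letter. GPD1 and GPP2, the dehydrogenase and the phosphatase that make glycerol, rose by 5.31 ± 0.54 and 5.28 ± 0.39. The one fall was GPD2, a second glycerol-3-phosphate dehydrogenase, at -0.81 ± 0.21.

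Genes of the Hog1 pathway itself moved both ways, most of them by less than 1. Of 23 members 11 rose (47.8%) and 8 fell (34.8%), against 36.5% and 40.6% of all features. The median was 0.17, and the single rise of at least 1 was that of the kinase gene RCK1 (2.09 ± 0.61). PTP2, a tyrosine phosphatase that acts on Hog1, rose by 0.93 ± 0.10. The 3 falls of at least 1 were SSK22, an upstream kinase (-1.54 ± 0.29), SHO1, a membrane protein of the sensing branch (-1.32 ± 0.12), and PTC2, a phosphatase of Hog1 (-1.11 ± 0.17). Most stress transcription factors rose. Of 28 tested 21 rose and 5 fell, led by USV1 (4.28 ± 0.40), XBP1, a repressor made under stress (4.22 ± 0.67), and MGA1 (3.42 ± 0.76), while SUT1 (-0.90 ± 0.27) and TUP1, the general co-repressor (-0.74 ± 0.37), fell most.

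Sodium pump genes rose, while the main proton pump gene fell. ENA1, the main sodium pump of the plasma membrane, was at 2.98, 3.12 and 3.69 on the lowest, median and highest array (mean 3.23 ± 0.24), and ENA2 and ENA5, neighboring and nearly identical copies, both had a mean of 3.19. Whether the features of the 3 copies were told apart on the array was not tested. PMA1, the proton pump that sets the membrane potential, was at -2.33, -2.15 and -1.81 (mean -2.12 ± 0.18), and PMP1 and PMP2, small proteins that bind this pump, fell by 1.58 ± 0.22 and 1.80 ± 0.33. PMA2, the second gene of this proton pump, rose by 0.67 ± 0.39. In the class as a whole 9 of 17 rose and 6 fell. Of 15 genes of calcineurin and calcium transport 9 rose and 2 fell, with RCN2, a regulator of calcineurin, at 2.98 ± 0.29, the vacuolar calcium pump PMC1 at 1.92 ± 0.25 and the calmodulin-dependent kinase CMK2 at 1.54 ± 0.71.

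Small stress proteins, glycogen and trehalose had the highest class medians. Of 13 small stress proteins tested (15 listed) 12 rose by at least 1 (median 4.74). HSP12, a small membrane-protecting protein, had the highest mean of all features. It was at 7.84, 8.51 and 9.36 on the lowest, median and highest array, a mean of 8.45 ± 0.48 (limma adjusted p = 6.6e-11). RTC3 and DDR2 followed at 7.98 ± 0.48 and 7.01 ± 0.43. All 14 glycogen genes rose, 11 by at least 1 (median 3.53), and both directions of the pathway were among them, with the glycogen synthase GSY1 at 4.16 ± 0.83, the debranching enzyme GDB1 at 4.04 ± 0.28 and the branching enzyme GLC3 at 3.95 ± 0.51. Of 10 trehalose genes 9 rose, all by at least 1 (median 2.94). PGM2, a phosphoglucomutase that feeds both pathways, rose by 5.40 ± 0.50, TSL1, a regulatory subunit of the trehalose synthase complex, by 5.15 ± 0.88 and TPS2, the phosphatase of the complex, by 4.97 ± 0.28. The single fall was PGM1, the other phosphoglucomutase, at -0.40 ± 0.19.

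Chaperone genes moved both ways. Of 32 HSP70, HSP90 and HSP104 genes with their partners 8 rose and 20 fell, and 16 of these changes were of at least 1 (6 rises, 10 falls). Among the rises of at least 1 were SSA4 (3.38, 3.88 and 4.58 on the lowest, median and highest array), SSE2 (mean 2.71 ± 0.30) and SSA3 (1.28 ± 0.22). The disaggregase HSP104 (2.58 ± 0.33) and its mitochondrial relative HSP78 (2.51 ± 0.57) rose as well. The largest falls were SSB1 and SSB2, the HSP70 proteins that sit on translating ribosomes (-2.52 ± 0.24 and -2.35 ± 0.25), and CNS1, a partner of HSP90 (-2.43 ± 0.36). All 14 genes of TRiC and prefoldin, which fold actin and tubulin, fell (median -0.74), led by PAC10 (-1.33 ± 0.10).

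Among catalases, dismutases and peroxidases 8 of 14 rose and 4 fell. CTT1, the cytosolic catalase, was at 6.54, 7.07 and 7.45 on the lowest, median and highest array, and the mitochondrial peroxiredoxin PRX1 rose by 3.31 ± 0.25, while GPX2, a glutathione peroxidase-like enzyme, and AHP1, a peroxiredoxin, fell by 1.28 ± 0.14 and 1.20 ± 0.24. Thioredoxins, glutaredoxins and glutathione enzymes gave 12 rises and 7 falls among 22, with GRX2 at 2.12 ± 0.16 and the falls of at least 1 at TRR1 (-1.10 ± 0.14) and GRX8 (-1.15 ± 0.11). All 10 aldo-keto reductase and methylglyoxal genes rose (median 1.63). GRE2, GRE3 and GLO1, which detoxify methylglyoxal or reduce related aldehydes, had means of 4.67 ± 0.36, 3.49 ± 0.18 and 2.60 ± 0.35.

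Many genes of autophagy, of vacuolar proteases and hydrolases and of the proteasome rose. Of 34 autophagy genes 29 rose and 1 fell, 18 of the rises being of at least 1 (median 1.24). ATG8, the ubiquitin-like protein of the autophagosome, was at 2.21, 2.91 and 3.38 on the lowest, median and highest array, and ATG29 and ATG7 had means of 2.33 ± 0.20 and 2.24 ± 0.32. Of 14 vacuolar proteases and hydrolases 11 rose (median 1.20), led by the proteinase inhibitor PAI3 (3.41 ± 0.57), the acid trehalase ATH1 (3.06 ± 0.31) and the mannosidase AMS1 (2.32 ± 0.34). PHO8, the vacuolar alkaline phosphatase, fell by 1.11 ± 0.19. The vacuolar ATPase went the other way as a class, with 15 falls and 1 rise among 19 genes (median -0.57). Of 37 proteasome genes 27 rose and none fell, but the median was 0.40 and only ECM29, a proteasome-associated protein, passed 1 (1.16 ± 0.19). Of 18 genes of ubiquitin and its conjugating enzymes 5 rose, 6 fell and 7 were not called (median -0.07). UBI4, the stress-induced chain of ubiquitin units, rose by 2.67 ± 0.22, while RPS31 and RPL40A, in which ubiquitin is fused to a ribosomal protein, fell by 2.04 ± 0.31 and 1.90 ± 0.24. The conjugating enzymes UBC8 and UBC5 rose by 2.27 ± 0.38 and 1.68 ± 0.28.

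Of 21 genes of the protein kinase A pathway, which drives growth on glucose, 14 rose and 3 fell (median 0.69). TPK2, a catalytic subunit, rose by 1.90 ± 0.22 and YAK1, a kinase that acts against the pathway, by 2.32 ± 0.27. RAS1, a GTPase upstream of it, fell by 2.38 ± 0.31.

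**Figure D2:**
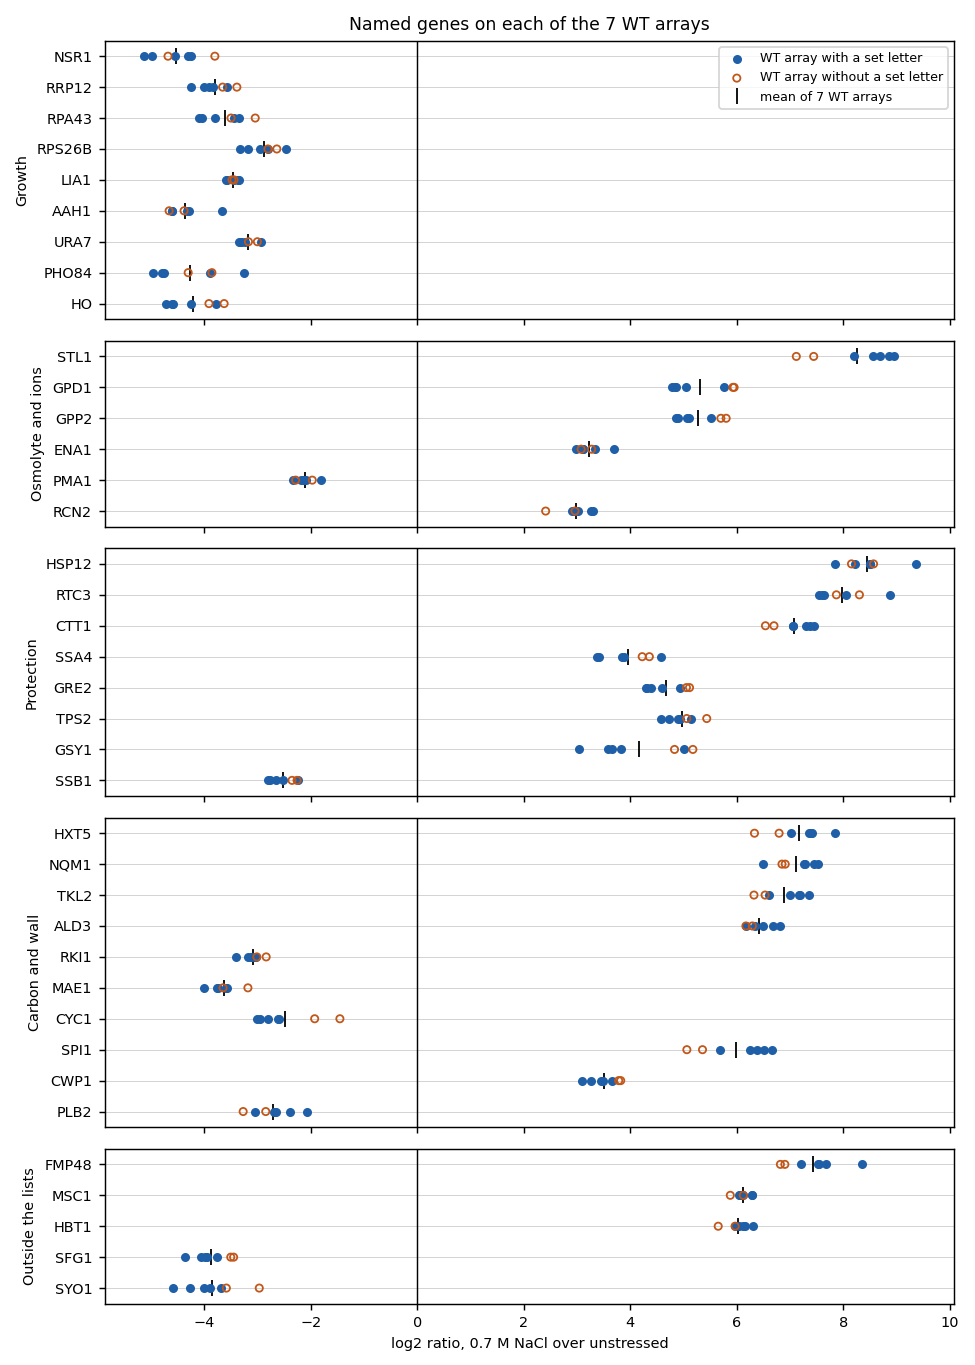
Log2 ratio (0.7 M NaCl over unstressed) of named genes on each of the 7 WT arrays, grouped by role. Filled points are arrays with a set letter, open points those without, and the short bar is the mean. NSR1 has the lowest mean at -4.53 and HSP12 the highest at 8.45, and no gene shown has arrays on both sides of 0.

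In carbon metabolism most genes of glycolysis fell. Of 30 genes of glycolysis and fermentation 21 fell and 7 rose (median -0.69), and every one of these rises was of at least 1. The rises were the glucose kinases HXK1 (4.36 ± 1.21), GLK1 (4.20 ± 0.82) and EMI2 (3.10 ± 0.48), PFK26, which makes the activator of phosphofructokinase (2.13 ± 0.20), GPM2 (2.35 ± 0.51), the second pyruvate kinase PYK2 (1.99 ± 0.38) and the minor pyruvate decarboxylase PDC6 (2.26 ± 1.45). The falls were shallower, with the mitochondrial alcohol dehydrogenase ADH3 at -1.92 ± 0.15, the main pyruvate decarboxylase PDC1 at -1.62 ± 0.32 and the main pyruvate kinase CDC19 at -1.22 ± 0.30. HXK1 and GLK1 were higher on replicates 1 and 2 (means of 5.81 and 5.17) than on the arrays with a set letter (3.78 and 3.81).

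In the pentose phosphate pathway large rises stood beside falls. Of 14 genes 7 rose and 7 fell, 5 and 4 of them by at least 1. NQM1, a second transaldolase, was at 6.50, 7.26 and 7.53 on the lowest, median and highest array, and TKL2, a second transketolase, at 6.32, 7.01 and 7.36. SOL4, a 6-phosphogluconolactonase, and GND2, a 6-phosphogluconate dehydrogenase, had means of 6.85 ± 0.40 and 4.67 ± 0.70. RKI1, ribose-5-phosphate isomerase, which has no second copy, was at -3.41, -3.06 and -2.84 (mean -3.09 ± 0.18). SHB17, a sedoheptulose bisphosphatase, fell by 1.44 ± 0.16.

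Of 19 hexose transporters and glucose sensors tested (22 listed) 9 rose and 3 fell. HXT5, a glucose transporter of slow-growing cells, was at 6.33, 7.35 and 7.85, and HXT1 rose by 2.90 ± 0.44, while HXT3 and HXT2 fell by 1.55 ± 0.38 and 1.24 ± 0.55. Many hexose transporters are close in sequence, and cross-hybridization among them was not tested. Of 8 genes that handle acetaldehyde and acetate 6 rose (median 1.54). The aldehyde dehydrogenases ALD3 (6.43 ± 0.25), ALD2 (5.21 ± 0.71) and ALD4 (4.21 ± 0.65) rose, while ALD5, the mitochondrial enzyme related to ALD4, fell by 2.22 ± 0.36.

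Most mitochondrial genes of oxidation rose. Of 32 genes of the TCA and glyoxylate cycles 21 rose and 8 fell (median 0.64). The succinate dehydrogenase subunits SDH1 and SDH2 rose by 2.01 ± 0.46 and 1.75 ± 0.33 and the cytosolic isocitrate dehydrogenase IDP2 by 1.80 ± 0.21. MAE1, the malic enzyme, was at -4.00, -3.65 and -3.18 on the lowest, median and highest array, and the aconitase ACO1 fell by 1.14 ± 0.34. Of 23 respiratory chain genes 18 rose and 2 fell (median 0.68). ATP synthase had a median of 0.09, with 4 rises and 4 falls among 19, and its 2 rises of at least 1 were its inhibitors INH1 (2.37 ± 0.48) and STF1 (2.39 ± 0.45). The mitochondrial ribosome had a median of -0.06, with 12 rises and 23 falls among 73 members and 38 without a call, in contrast to the cytoplasmic ribosome. The one listed gene with a rise of at least 1 was MRP8 (1.94 ± 0.24), whose membership of this ribosome is doubtful. Protein import fell in 24 of 32 genes (median -0.52), with TIM23 lowest at -1.21 ± 0.30.

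Of 16 genes of fatty acid oxidation and carnitine transport 14 rose and none fell (median 1.25). POT1, the thiolase, had the highest mean at 3.59 ± 1.54, but it ranged from 0.55 to 4.78 over the arrays. The isomerase ECI1, at 1.35, 1.77 and 1.95 on the lowest, median and highest array, was steadier. Peroxins, which build peroxisomes, gave 16 rises and 4 falls among 28 with a median of 0.29. Of the pair of coreceptors for import, PEX18 rose (2.47 ± 1.13) and PEX21 fell (-1.25 ± 0.19).

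Many genes of the cell cycle fell. All 10 histone genes fell (median -0.89), with HHO1, the linker histone, at -1.27 ± 0.20. Of 48 replication proteins 41 fell and 2 rose (median -0.49). The polymerase alpha subunits POL12 and POL1 fell by 1.74 ± 0.31 and 1.73 ± 0.37 and RNR1, the large subunit of ribonucleotide reductase, by 1.66 ± 0.50, while RNR3, its second form, rose by 1.34 ± 0.46. Of 17 genes of G1 and Start 10 fell and 3 rose (median -0.59). FAR1, an inhibitor of the G1 cyclin kinase, was lowest at -2.89 ± 0.24, and CLB6, an S-phase cyclin, fell by 1.80 ± 0.40, whereas CDC28, the cyclin-dependent kinase, was at 0.75 ± 0.12. CLB2, the main mitotic cyclin, fell by 1.42 ± 0.29, the kinesin CIN8 by 1.31 ± 0.39 and the cohesin subunit SMC3 by 1.90 ± 0.41. All 15 genes of daughter-cell separation and HO fell (median -1.10). HO, the endonuclease that switches mating type, was at -4.73, -4.25 and -3.63 on the lowest, median and highest array, and the separation genes SUN4 and AMN1 had means of -2.02 ± 0.34 and -1.73 ± 0.28.

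For some of these classes the values of the 2 kinds of array lay apart. The median of the G1 class was -0.67 on the arrays with a set letter and -0.21 on replicates 1 and 2. For septins, tubulin and spindle the values were -0.56 and -0.21, for cohesin and condensin -0.74 and -0.40, and for mitotic cyclins and exit -0.49 and -0.16. They lay closer for histones (-0.86 and -0.81) and replication proteins (-0.57 and -0.41), and daughter-cell separation was lower on replicates 1 and 2 (-1.26) than on the others (-1.08). The difference between kinds of array was not tested.

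Most meiosis and sporulation genes tested rose, while mating genes moved both ways, with shares of rises and falls near those of all features. Ratios do not show how strongly any of these genes were expressed. Of 42 meiosis and sporulation genes tested, out of 56 listed, 29 rose, 18 by at least 1, and 3 fell (median 0.84). SPS100, a spore wall protein, was at 5.07, 6.29 and 6.66 on the lowest, median and highest array, and SHC1 and REC102 had means of 2.67 ± 0.41 and 2.22 ± 0.33. Of 39 mating genes 13 rose and 16 fell (median -0.12). PRM10 and PRM8, named for their induction by pheromone, rose by 4.23 ± 0.49 and 2.36 ± 0.30 and the cell fusion gene FUS2 by 1.49 ± 0.33, while the a-factor gene MFA2 and the agglutinin subunit AGA2 fell by 2.39 ± 0.42 and 2.06 ± 0.45.

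Genes of wall mannoproteins and of glucan moved both ways, with shares of rises and falls near those of all features. Mannoproteins and PIR proteins gave 14 rises and 15 falls among 32, 6 and 11 of them of at least 1 (median -0.12). SPI1, a wall protein linked to glucan, was at 5.06, 6.25 and 6.66 on the lowest, median and highest array, and CWP1, a mannoprotein, at 3.10, 3.49 and 3.82. YPS1, a wall-bound protease, SED1 and PIR3 had means of 1.89 ± 0.32, 1.28 ± 0.18 and 1.31 ± 1.02. On the other side stood PLB2 (-2.71 ± 0.40), ECM33 (-2.45 ± 0.28) and CWP2, the mannoprotein related to CWP1 (-1.99 ± 0.39). Glucan genes gave 10 rises and 10 falls among 26. BAG7, a GTPase-activating protein, had a mean of 3.64 ± 1.35, while the glucan-remodeling enzymes GAS3, GAS1 and EXG1 fell by 1.98 ± 0.22, 1.94 ± 0.20 and 1.56 ± 0.24. Chitin synthesis had 4 rises and 9 falls among 17, with the repair synthase CHS1 at 1.30 ± 0.39 and UTR2, a cross-linking enzyme, at -1.64 ± 0.28. Mannosyl transfer fell in 22 of 29 genes (median -0.63), led by MNN1 (-2.82 ± 0.25) and PSA1, which makes GDP-mannose (-2.56 ± 0.20).

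The classes of membrane traffic described here had medians between -0.49 and 0.51, though some members changed far more. Coat proteins fell in 18 of 24 members and rose in none (median -0.37), with ARF1, a small GTPase, at -1.31 ± 0.31. Entry into the endoplasmic reticulum and N-glycosylation fell in 34 of 43 and rose in none (median -0.49), with the channel gene SEC61 at -1.05 ± 0.29. The unfolded protein response had a median of -0.25, with its chaperone KAR2 at -0.82 ± 0.19 and MPD1, a disulfide isomerase relative, as the one rise of at least 1 (1.21 ± 0.21). ESCRT and retromer rose in 16 of 23 (median 0.48), with VPS36 at 1.62 ± 0.34 and the deubiquitinase DOA4 at 1.30 ± 0.24. Eisosomes and actin patches rose in 27 of 37 and fell in 6 (median 0.51), with FMP45, an eisosome-associated membrane protein, at 5.63, 6.14 and 6.57 on the lowest, median and highest array and PUN1 and LSP1 at 2.74 ± 0.43 and 2.31 ± 0.31. Nuclear transport fell in 31 of 50 and rose in 7 (median -0.31), with the importin KAP123 at -2.03 ± 0.28.

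The classes of nuclear machines had medians near the -0.04 of all features. Mediator, the general transcription factors with SAGA, chromatin remodelers and the spliceosome had medians of 0.13, -0.08, -0.05 and -0.15. In this order 11 of 25, 20 of 47, 27 of 60 and 20 of 67 members had no call, against 1404 of all 6129 features. Rises made up 40%, 23.4%, 23.3% and 26.9% of the members, against 36.5% of all features. Falls made up 16%, 34%, 31.7% and 43.3%, against 40.6% of all features. Members above 1 in size were few, such as the remodeler subunits RSC9 (1.07 ± 0.20) and SWC7 (-1.69 ± 0.19). In the spliceosome the lowest were SNU13 (-2.18 ± 0.14) and PRP43 (-1.86 ± 0.25), both of which also serve ribosome synthesis. Of 55 DNA repair and checkpoint genes 22 rose and 13 fell. The photolyase PHR1 and the damage recognition factors RAD4 and MAG1 rose by 1.67 ± 0.19, 1.28 ± 0.13 and 1.20 ± 0.32, while OGG1, which excises oxidized guanine, and the mismatch protein MSH6 fell by 2.42 ± 0.35 and 1.56 ± 0.28.

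Members of 89 isoform pairs, genes for the same step or for closely related proteins, were compared with each other. The pairs were chosen with earlier results of these data known and no other gene pairs were examined, so the counts describe these pairs and are not independent evidence that isoforms differ more than other genes. The difference between the members was taken within each array and tested over the 7 WT arrays by an exact two-sided sign-flip permutation test with Benjamini-Hochberg adjustment over the pairs. The members differed in 79 of 89 pairs. In 78 pairs the difference had 1 sign on all 7 arrays, which gives an exact permutation p = 0.016, the smallest p this design allows, and an adjusted p of 0.018. Both members were called with opposite signs in 32 pairs, both rose in 22, both fell in 21, and only 1 was called in 14, to be read beside the 36.5% of all features that rose and the 40.6% that fell. The difference reached 2 or more in 35 pairs, and in 11 pairs the members moved in opposite directions by at least 1 each.

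The widest pairs, those of TKL1, TAL1 and SOL3 with their second copies, lay in the pentose phosphate pathway. TKL1, the main transketolase, was at -1.37 ± 0.22 and TKL2 at 6.89 ± 0.39, a difference of -8.26 (range over arrays -8.80 to -7.68). TAL1, the main transaldolase, was at -0.95 ± 0.15 and NQM1 at 7.11 ± 0.37, a difference of -8.06, and SOL3 was at -0.71 ± 0.23 and SOL4 at 6.85 ± 0.40, a difference of -7.56. In the same pathway GND1 was at -1.12 ± 0.20, a difference from GND2 of -5.79, which was narrower than some pairs of other pathways. In each of these 4 steps the gene known as the main one in growing cells fell and the other rose.

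Wide differences were also measured in other pathways. ALD4 and ALD5 differed by 6.43, GPD1 and GPD2 by 6.12, and HXK1 and HXK2 by 5.09, the hexokinase HXK2 being at -0.73 ± 0.23. PGM1 lay below PGM2 (difference -5.81, range -6.46 to -5.20), and CYC1, the main form of cytochrome c, at -2.48 ± 0.58, lay below CYC7, the form of oxygen-poor cells, at 3.41 ± 0.40. Opposite moves of at least 1 were also measured for CDC19 and PYK2 (difference -3.21), PDC1 and PDC6 (-3.88), GPX1 and GPX2 (3.03), FKS1 and GSC2, the catalytic subunits of glucan synthase (-2.83), GSP1 and GSP2, the Ran GTPases of nuclear transport (-3.52), YEF3 and HEF3 (-3.80), and RNR1 and RNR3, whose means are given above. The catalases were unlike these, in that both rose, CTA1 in the peroxisome by 1.26 ± 0.21 and CTT1 in the cytosol by 7.07 ± 0.35. The difference of PDC1 and PDC6 varied most, from -5.26 to -0.29 over the arrays.

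Second copies did not move apart in every case. The members of 10 pairs did not pass the test of their difference. Of these pairs, picked for mention after their values were seen, PIL1 and LSP1, the core proteins of eisosomes, both rose and differed by -0.08 (range -0.23 to 0.13, adjusted p = 0.12 by the exact sign-flip test), and the G1 cyclins CLN1 and CLN2 both fell and differed by 0.06 (range -0.26 to 0.48, adjusted p = 0.61). The mitotic cyclins CLB1 and CLB2 differed by 0.08 (range -0.65 to 0.55, adjusted p = 0.65). The range over arrays is given because a missed threshold does not show that the members move alike. RAS1 and RAS2, named here also for their values, differed by -3.36, RAS2 being at 0.98 ± 0.23. In all the pairs named in these paragraphs as differing, the mean difference had the same sign on the arrays with a set letter, on those without, and on the ckb12 arrays.

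**Figure D3:**
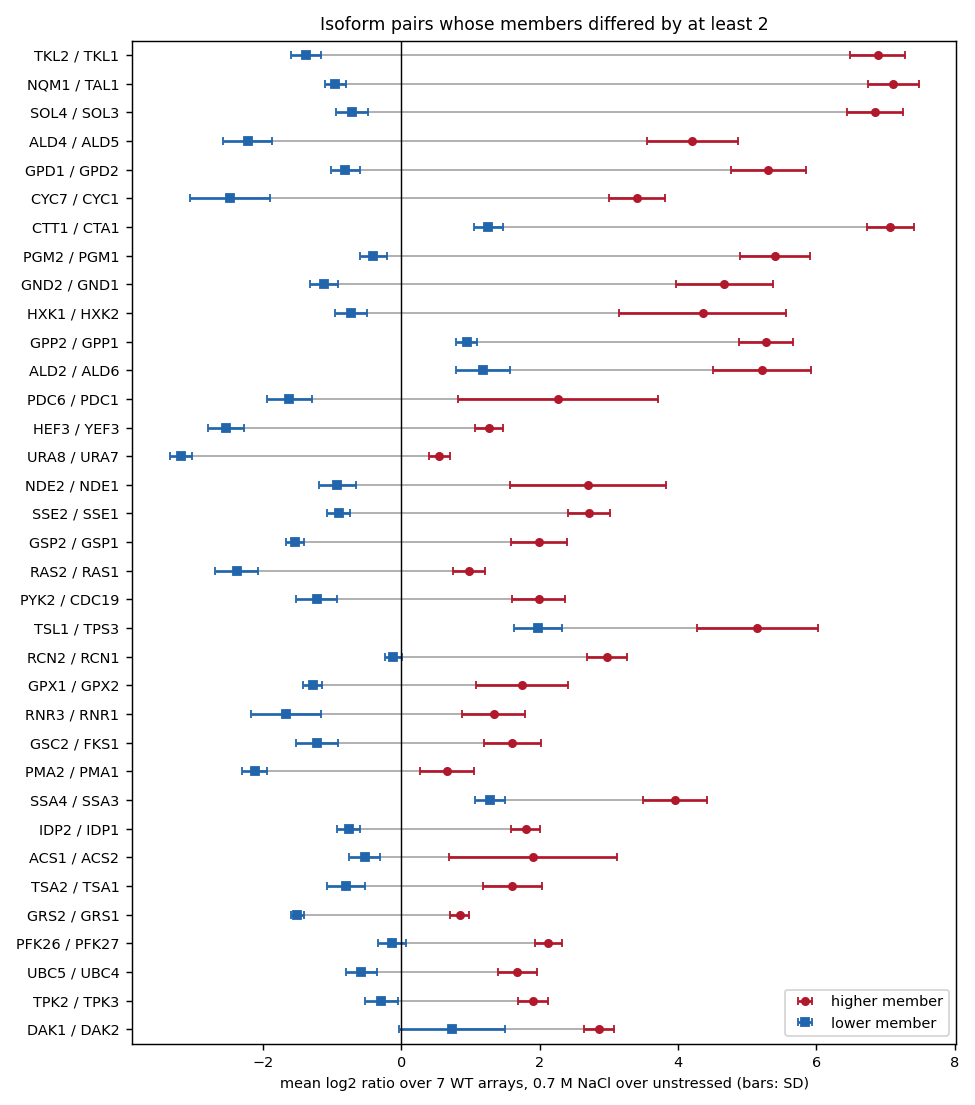
Mean log2 ratio (0.7 M NaCl over unstressed) of both members of the 35 isoform pairs that differed by at least 2, with bars for the SD over 7 WT arrays. Circles are the higher and squares the lower member, named in that order on the left, from TKL2 and TKL1 (6.89 and -1.37) at the top downward.

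Many strong changes lay outside the 79 classes. Of the 770 rises of at least 1, 246 were in the lists and 524 outside, whereas of the 991 falls of that size 603 were in the lists and 388 outside. The largest rises of ORF-style features outside the lists with a gene symbol were FMP48 (7.43 ± 0.52), FMP16 (6.43 ± 0.57), MSC1 (6.11 ± 0.14), HBT1 (6.03 ± 0.20), MPC3, a subunit of the mitochondrial pyruvate carrier (5.93 ± 0.48), RTN2, a reticulon (5.90 ± 0.66), CPP3 (5.87 ± 0.85), DCS2, a regulator of the cap-scavenging enzyme (4.97 ± 0.18), PNS1 (4.95 ± 0.27) and GID10, a substrate receptor of the GID ubiquitin ligase (4.91 ± 0.96). MSC1 was among the steadiest of all named genes, between 5.88 and 6.28 over the arrays.

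The largest falls outside the lists were mostly further ribosome genes. They were SFG1, a transcription factor (-3.87 ± 0.32), SYO1, which carries ribosomal proteins into the nucleus (-3.86 ± 0.52), HCA4, a helicase of rRNA processing (-3.50 ± 0.31), MRD1 (-3.33 ± 0.27), TOD6, a repressor of ribosome biogenesis genes (-3.23 ± 0.21), PXR1 (-3.19 ± 0.28), SRP40 (-3.11 ± 0.30), LTV1, which takes part in export of the small subunit (-3.02 ± 0.22), PWP1 (-2.96 ± 0.17) and the acid phosphatase PHO3 (-2.94 ± 0.22). MRD1, PXR1 and PWP1 also take part in rRNA processing.

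Features without a gene name behaved unevenly. Of 676 ORF-style IDs with no locus tag in the RefSeq table of yeast, 229 were tested, and 41.5% of these rose and 17.9% fell, against 37.5% and 42.0% of the 5673 tested IDs with a locus tag. Several of the extreme IDs without a tag have a strongly changed gene as their neighbor in number. YBR116C, at 6.34 ± 0.74, stands beside TKL2 (YBR117C), and YFR052C-A, at 4.18 ± 1.17, stands beside HXK1 (YFR053C, 4.36 ± 1.21). YOR309C, at -3.33 ± 0.26, stands beside NOP58 (YOR310C), a box C/D snoRNP protein that fell by 3.10 ± 0.17. Whether the tiles of such features were read by strand is not given in the sources used here, so their signal and that of the neighbor cannot be told apart. Of IDs with a locus tag but no gene symbol, 44.6% of 529 rose and 38.2% fell, with YNL194C (6.81 ± 0.40) and YNL195C (5.83 ± 0.49) highest and YBL028C lowest (-2.83 ± 0.47).

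The ends of the chromosomes and the mitochondrial genome were looked at as well. Of 304 tested ORF-style features among the 10 outermost ORF numbers of each chromosome arm 41.4% rose and 28.9% fell (median 0.06). Of 27 features of the mitochondrial genome 18 were tested, 2 of them rose and none fell, and their means lay between -0.27 and 0.28. The arrays differed, since the median of these 18 ran from -0.39 on replicate 1 to 0.44 on replicate 11. None of the 18 had 1 sign on all 7 arrays.

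The arrays were not equally alike for every gene. The 10 listed genes with the largest SD over the WT arrays were CDA2, GAL2, POT1, FIT1, PDC6, BAG7, SPR28, SPR3, ACS1 and POX1, with SDs between 1.21 and 1.93. CDA2, a chitin deacetylase of the spore wall, had the largest. It was at -2.64, -3.12 and -2.20 on replicates 8, 9 and 10 and between 0.54 and 1.24 on the 4 other WT arrays, and it was not called (mean -0.63, limma adjusted p = 0.33). The 2 ckb12 arrays of sets A and B had 1.58 and 0.80.

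FIT1, a mannoprotein that holds siderophores at the wall, was below 0 on replicates 1 and 2 (-1.38 and -0.99) and between 0.94 and 2.23 on the others, and it was not called (adjusted p = 0.09 in limma). It was called without replicate 1 (mean 1.26), without replicate 2 (1.19) and on the arrays with a set letter alone (1.70). GAL2, the galactose permease, was at -0.40 on replicate 2, 2.18 on replicate 1 and at most 4.61 on the others, all above both of these. POT1 and POX1, enzymes of fatty acid oxidation, were lowest on replicate 2 (0.55 and -0.18) and next lowest on replicate 1 (2.75 and 0.98), and PEX18 had the same order. PDC6 and SPR3 stood apart on replicate 2 alone, at -0.86 and -1.52, against 2.17 to 3.32 and 1.39 to 1.92 on the other WT arrays. SPR28, a septin of sporulation, was the reverse, with 3.26 on replicate 2 and between -0.82 and 1.28 on the rest. The source of these differences between arrays was not tested.

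**Figure D4:**
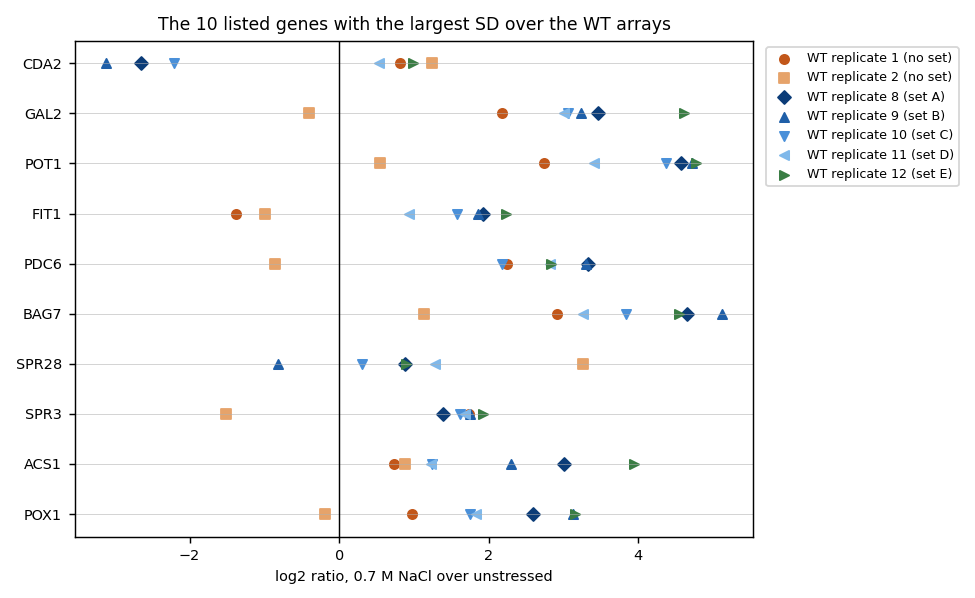
Log2 ratio (0.7 M NaCl over unstressed) of the 10 listed genes with the largest SD over arrays, with 1 symbol for each WT array. Replicate 2 is the lowest array for GAL2, POT1, PDC6, BAG7, SPR3 and POX1 and the highest for CDA2 and SPR28, and replicates 8, 9 and 10 lie below -2 for CDA2.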

How the data were processed

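The authors hybridized labeled cDNA of treated and unstressed cells together to 2-color tiled arrays and deposited 1 log2 ratio per feature and array, already normalized and with replicates kept apart. The treated channel carried the same dye on every array per the labels, while the study's methods mention dye orientation on select samples. If the labels hold, a dye effect of a feature cannot be told apart from its response to salt. The log2 scale and the direction, treated over unstressed, come from the labels and methods and are not stated in the deposited file itself. How tiles were combined, how background was treated and which genome build was used are not given in the sources used here. Intensities were not used. Precision is therefore set by how many arrays there are. The methods describe biological replicates.

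The deposited log2 ratios were used without further normalization. Means of the 7 WT arrays were tested against 0 with limma 3.58.1 (lmFit and eBayes) in R 4.3.3 over features present on all WT arrays, with Benjamini-Hochberg adjustment over 6129 features and a threshold of 0.05. On simulated data with 200 changed features this recovered 68.8% of changes of 0.5 and 95.1% of changes of 1, with 5.56% and 5.42% of calls wrong. These rates do not carry over to the calls reported here, which covered 77.1% of features. The simulated noise was also independent between features, with no effect shared within an array or dye. The sign-flip test of pairs recovered 88.8% of differences of 1 among 40 changed pairs of 89, with 2.87% of calls wrong. Symbols were taken from RefSeq's genes of assembly R64, which matched 6023 of 6942 IDs.

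The members, gene classes, pairs and the rules for naming genes were chosen with earlier results of these data known. The classes were written from general knowledge and 40 features stand in more than 1. Within each class the text names genes from up to 3 of the highest and 3 of the lowest called members and those of at least 1 against the class median. Outside the classes it names the 10 largest rises and falls with 1 sign on all arrays, and among pairs the 10 widest and those moving apart by at least 1 each. RAS2, PIL1, CLN1, CLN2, NOP58, PMA2 and the genes of the mating type check lie outside these rules, the first 6 being picked once their values were known. Alternatives were array centering, quantile scaling, equal spread, missing values, other tests and leaving out arrays. No column of values was left unused. Some genes that meet the rules are not reported here.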

Additional observations from a re-analysis of the deposited data

Results flagged for a closer look

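In groups of 7 arrays a single array was marked where its gap to the nearest other array exceeded Dixon's limit of 0.568 of the whole range. This was tried on the medians of 79 classes and on the named genes, 359 items in all, of which 26 were marked. Chance marks about 1 in 20 independent, normally distributed items. The items here share arrays and some genes were named for their large SD, so that rate is no yardstick for the 26 marks.

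Replicate 12 stood apart most often. The class median of ubiquitin and its conjugating enzymes was -0.42 on it, against -0.04 to 0.07 on the other WT arrays, and that of the mitochondrial ribosome was -0.47, against -0.06 to 0.16. Among genes that fell, RPB5 was at -2.16 on replicate 12, RPL31B at -3.33, RPC31 at -3.07, MNN1 at -3.33 and DCP1 at -1.85, each below all other WT arrays. LYS4 at -1.99, KAP123 at -1.43, SUT1 at -0.31, FKS1 at -0.58 and AAH1 at -3.66 were each closer to 0 on it than on all others. Among genes that rose, ENA2 at 3.64 and INO1 at 3.45 were higher on replicate 12 than on the other WT arrays, and MAG1 at 0.53 was lower.

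Replicate 2 stood apart for the class medians of HSP70, HSP90 and HSP104 with their partners, at -0.41 against -0.75 to -0.62, and of fatty acid oxidation and carnitine, at 0.82 against 1.16 to 1.35. On it SPR3 was at -1.52, PDC6 at -0.86 and CMK2 at 0.0182, each below all other WT arrays, whereas KAR2 at -0.44, DCS2 at 5.34 and FAA1 at 2.18 were above them. Replicate 11 stood apart for the pentose phosphate pathway, at -0.53 against -0.19 to -0.02, for sphingolipid synthesis, at -0.18 against 0.05 to 0.20, and for ERG9, at 0.10 against 0.43 to 0.50.

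PHO8, the vacuolar alkaline phosphatase, was between -1.32 and -0.82 on all WT arrays, while the 2 ckb12 arrays were above 0 with a mean of 0.26. The strains moved in opposite directions, and the difference was not tested.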

How the results depend on the processing

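The number of features called, 4725, lay between 4526 and 4868 when 1 WT array was left out. It was 4725 after centering each array, 4780 after quantile normalization, 4750 with equal median absolute deviation, 4508 on the arrays with a set letter alone, 4496 by the exact sign-flip test, 5041 with missing values allowed and 5505 by Storey's q value, all within 1.5 times of the number reported. A test against a change of 1 (limma's treat) called 547 rises and 748 falls. Of 280 genes examined, 51 lost their call under at least 1 alternative, but only 3 did so without that stricter test, AIR2, SPR28 and SPR3, and none reversed. FIT1 and CDA2 gained a call. Over 948 alternative values of class medians 1 moved by more than the spread between arrays, that of cytoplasmic decay, and 2 classes with medians near 0 changed sign, the mitochondrial ribosome without replicate 12 and sphingolipid synthesis without replicate 9. The number of isoform pairs that differed, 79, was 78 to 80 with 1 array left out and 81 by limma. It was 0 on the arrays with a set letter alone, where 5 arrays allow no exact p below the threshold.

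No paired analysis was possible because a single group was tested against 0. The planned search of promoters was not run, since no sequence was used here. The 7 arrays limit the precision, signal over background was not used, and ratios cannot show levels. Near-identical copies and overlapping features cannot be told apart with certainty.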
